A study of Mus musculus with 10 samples.

Results

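RNA of mouse macrophages from the abdominal cavity was sequenced in young wild-type mice (4 libraries, replicates A, B, C and E), aged wild-type mice (3 libraries, replicates 3, 4 and 6) and aged mice labelled Trem1-/- (3 libraries, replicates 1, 2 and 3). Trem1 encodes a myeloid receptor that amplifies inflammatory signals, and the study asked what its deletion does to gene expression during ageing. The 9 genes described here, of 54532 in the deposited table, are Gnb3, Cubn, Cacna1h, Fgl2, Enpp5, Prss35, Prdm1, Adgrl2 and Robo1. They were chosen by their measured normalized counts, selected on a level that appeared higher in both aged groups than in young wild type, so both differences from young are given as a description without a test. The comparison of the aged groups with each other was not itself used in the choice and was tested. It is still not free of the choice, which favours genes whose level in the Trem1-/--labelled libraries lay above young. The labels give no age in months, sex, strain or sorting step, no young Trem1-/- group and no statement that libraries came from separate mice, so p-values measure the spread between these libraries, which may be technical.

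The 9 genes belong to no single pathway. Robo1 is a receptor for SLIT guidance proteins, which steer axons and also migrating leukocytes through adaptors and small GTPases. Adgrl2 (latrophilin 2) is an adhesion receptor coupled to G proteins that binds teneurins and FLRT proteins on neighbouring cells. Gnb3 is a beta subunit of heterotrimeric G proteins, best known from cone photoreceptors, and Cacna1h is the pore of a low-voltage-activated T-type calcium channel. Cubn (cubilin) is a large endocytic receptor that takes up vitamin B12 with its carrier in the gut and albumin in the kidney. Fgl2 (fibrinogen-like protein 2) exists as a membrane prothrombinase of macrophages and as a secreted protein that binds inhibitory Fc receptors. Prss35 is a member of the trypsin-like serine protease family, Enpp5 is a membrane protein of the ectonucleotide pyrophosphatase/phosphodiesterase family, and Prdm1 (Blimp-1) is a transcriptional repressor that drives plasma cell differentiation and also acts in macrophages.

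RefSeq promoter windows on GRCm38.p6 (250 bases before to 50 bases after the start) were matched for 6 of the 9 genes: Adgrl2, Cubn, Fgl2, Prdm1, Prss35 and Robo1. Gnb3, Cacna1h and Enpp5 were not matched. For each matched gene 1 window was searched. For Adgrl2, Prdm1 and Robo1 it lies inside the gene as annotated in GENCODE M21, so their outermost annotated starts were not searched. The windows were searched on both strands for the letters TATAAA of the core promoter box, the AP-1 element TGANTCA, the PU.1 element GAGGAAG, the GATA-factor element AGATAAG, the PRDM1-type element GAAAGTG and the E-box CACGTG. The 3 windows that held a match are shown, with the matched bases in capitals: Fgl2 (chr5:21372423-21372722, plus strand), Prdm1 (chr10:44458699-44458998, minus strand) and Adgrl2 (chr3:148954586-148954885, minus strand).
Fgl2: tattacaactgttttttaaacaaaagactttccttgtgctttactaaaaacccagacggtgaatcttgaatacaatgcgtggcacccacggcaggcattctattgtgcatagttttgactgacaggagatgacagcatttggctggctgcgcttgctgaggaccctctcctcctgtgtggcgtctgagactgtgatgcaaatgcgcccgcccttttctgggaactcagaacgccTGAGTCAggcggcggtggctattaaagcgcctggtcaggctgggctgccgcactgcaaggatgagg
Prdm1: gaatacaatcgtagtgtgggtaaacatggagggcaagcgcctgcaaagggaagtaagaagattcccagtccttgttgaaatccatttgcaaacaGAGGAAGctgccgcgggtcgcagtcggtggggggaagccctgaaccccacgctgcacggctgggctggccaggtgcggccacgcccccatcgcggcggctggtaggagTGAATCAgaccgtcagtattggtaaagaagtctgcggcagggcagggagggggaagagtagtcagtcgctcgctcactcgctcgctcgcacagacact
Adgrl2: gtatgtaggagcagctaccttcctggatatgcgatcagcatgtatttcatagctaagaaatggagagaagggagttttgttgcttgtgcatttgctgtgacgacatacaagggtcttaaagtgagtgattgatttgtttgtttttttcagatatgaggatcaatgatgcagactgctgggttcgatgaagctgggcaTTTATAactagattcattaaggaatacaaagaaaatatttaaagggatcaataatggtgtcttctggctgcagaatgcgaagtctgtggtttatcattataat
The AP-1 letters TGAGTCA in Fgl2 began 16 bases before the RefSeq start. In Prdm1, TGAATCA began 48 bases before the start and the PU.1 letters GAGGAAG began 156 bases before it. The match in Adgrl2, TTTATA, is the TATA letters on the other strand and began 53 bases before the start. Of all 32851 promoter windows of this length, 7.81% held the AP-1 letters, 13.6% the PU.1 letters and 13.6% the TATA letters. The E-box, GATA and PRDM1-type letters were found in 7.15%, 3.04% and 4.81% of all windows and in none of the 6. None of the 6 motifs was common to the 6 windows searched.

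Between 2663744 and 5603498 reads per library were recovered from the normalized counts, and 3 reads, used as the floor of detection, correspond to 1.85 to 3.84 normalized counts. Adgre1 (F4/80) and Gata6, which define large peritoneal macrophages, were read in every group, and all 15 genes of that marker list were tested. The list's summed level was 118560 to 125117 normalized counts in young wild type, 38290 to 62141 in aged wild type and, for the libraries labelled Trem1-/-, 107876 to 132923. The summed level of 15 B cell markers was 3243 to 6653, 16199 to 25221 and 7409 to 14949 in the same order. In such bulk samples, fewer cells of a type and less RNA per cell cannot be told apart. Trem1 was read in every library, those labelled Trem1-/- included, with 23.5, 106 and 13.8 normalized counts in their replicates 1, 2 and 3 against 64.0, 15.3 and 27.0 in replicates 3, 4 and 6 of aged wild type. A count per gene does not reveal a deletion that spares part of the RNA, and the label was kept as given.

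The description as high in both aged groups held for 8 of the 9 genes and failed for Enpp5. For those 8 genes, all 6 aged libraries lay above all 4 young libraries, as they did for 484 of the 11506 genes tested (4.21%). The 3 aged wild-type libraries alone lay above the young ones for 18.4% of all genes, and those labelled Trem1-/- for 8.05%. The 8 genes were picked for this pattern, so nothing is read from these shares. The margin between the lowest aged and the highest young library was widest for Cubn, at 5.105 times, followed by Prdm1 (4.10 times) and Gnb3 (3.98 times). It was narrowest for Robo1 (1.52 times), Fgl2 (1.53 times) and Prss35 (1.57 times). Enpp5, the 1 gene outside, had its lowest aged library at 0.767 times the highest young one. In the authors' deposited table of aged against young wild type, the log2 fold changes ranged from 1.88 for Fgl2 to 4.68 for Gnb3 among the 8 genes, and it was -0.07 for Enpp5.

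**Figure D1:**
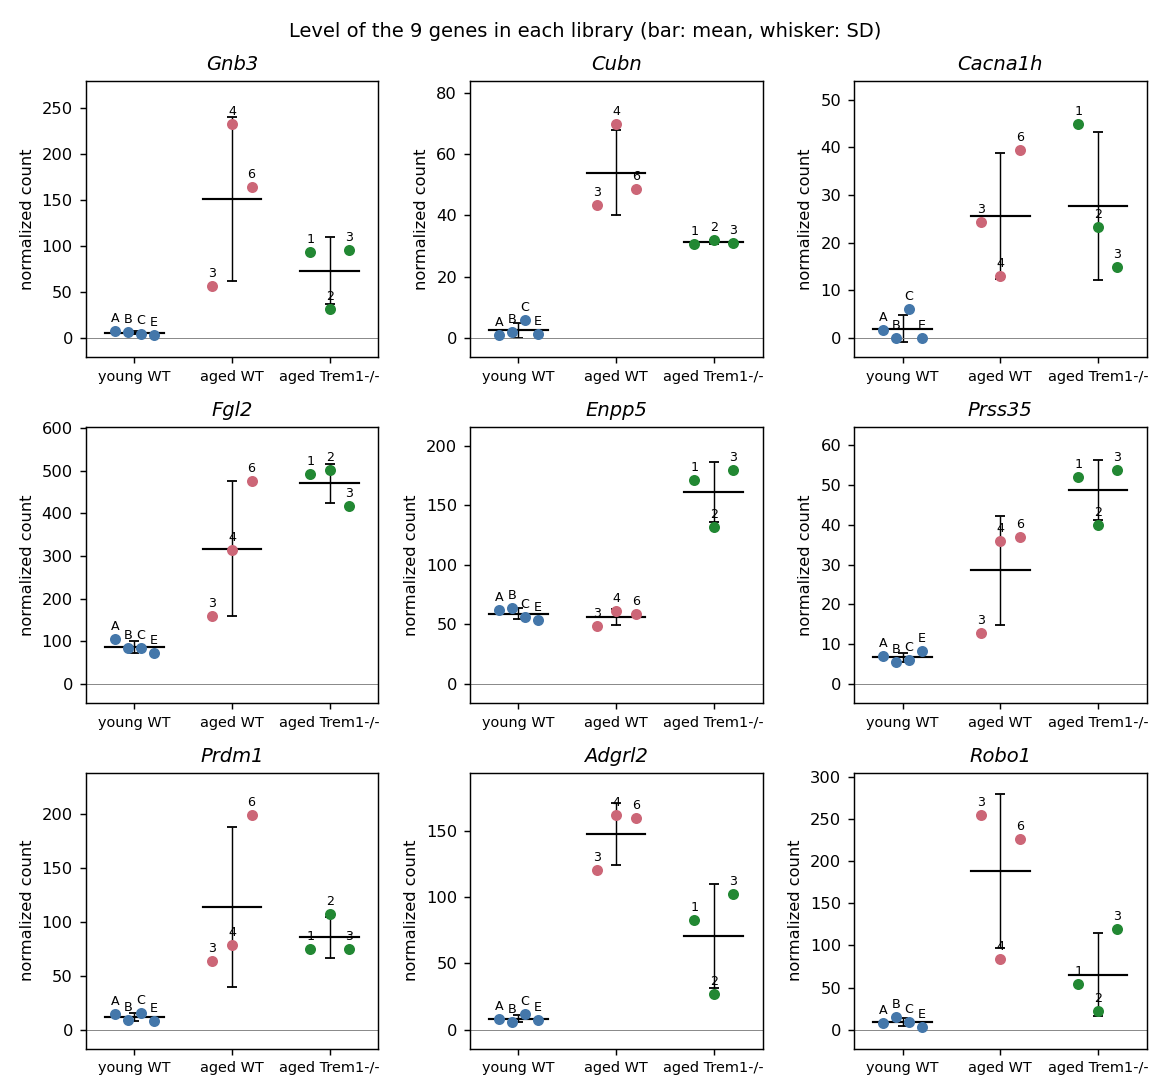
Normalized read counts of the 9 genes in each library, by group (points labelled by replicate; horizontal bar, mean; whisker, SD; n = 4 young wild type, 3 aged wild type, 3 labelled Trem1-/-). All aged points lie above the young ones in 8 panels, whereas in the Enpp5 panel the aged wild-type points, 48.6 to 61.1, lie among or below the young points.

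The guidance receptors Robo1 and Adgrl2 had their highest levels in aged wild type, with the libraries labelled Trem1-/- in between. Robo1 (ENSMUSG00000022883.11, GRCm38 chromosome 16, 72308306 to 73046095, plus strand) had 7.84, 14.8, 8.41 and 3.49 normalized counts in young replicates A, B, C and E. It had 255, 84.0 and 226 in replicates 3, 4 and 6 of aged wild type, and 54.2, 22.4 and 119 in replicates 1, 2 and 3 labelled Trem1-/-. The aged groups overlapped, since the lowest aged wild-type library lay below the highest library labelled Trem1-/-. The group means were 8.63 ± 4.65 (SD, n = 4), 188 ± 91.5 (n = 3) and 65.3 ± 49.4 (n = 3), and the last was 0.347 times the aged wild-type mean. The log2 difference between the aged groups was -1.66 ± 0.61 (SE), with a 95% confidence interval of -2.99 to -0.33 and a limma adjusted p of 0.0778.

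Adgrl2 (ENSMUSG00000028184.12, chromosome 3, 148815583 to 148990555, minus strand) had 5.54 to 12.0 normalized counts in young wild type. It reached 120.3, 162 and 159.9 in replicates 3, 4 and 6 of aged wild type, against 82.8, 26.4 and 102 in replicates 1, 2 and 3 labelled Trem1-/-. All 3 of the latter lay below all 3 aged wild-type libraries, and replicate 2 was lowest, as it was for Robo1. The mean ratio was 0.478 and the log2 difference -1.25 ± 0.43 (95% confidence interval -2.19 to -0.31, limma adjusted p = 0.0635). Neither gene therefore passed between the aged groups, although both confidence intervals for a single gene excluded 0. Adgrl2 passed with DESeq2 (-1.11, adjusted p = 0.0358), with a pseudocount of 5 (-1.18, adjusted p = 0.0496) or without replicate 3 labelled Trem1-/- (-1.62, adjusted p = 0.0337). Robo1 passed without aged wild-type replicate 4 (-2.16, adjusted p = 0.024), without replicate 3 labelled Trem1-/- (-2.24, adjusted p = 0.0309) or with no filter on low values (adjusted p = 0.0494). Without replicate 2 labelled Trem1-/-, the lowest library for both genes, the differences shrank to -0.66 for Adgrl2 (limma adjusted p = 0.175) and -1.06 for Robo1 (limma adjusted p = 0.253).

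Among tested partners in SLIT-ROBO signalling, more were called with the sign opposite to the Robo1 difference than with the same sign. Robo1 itself did not pass between the aged groups, and its difference from young was used in its choice. Of 15 tested genes of that pathway, 8 fell and 2 rose in aged wild type against young, beside 14.3% of all genes called higher and 19.0% called lower there (33.3% together). Between the aged groups 6 of the 15 were higher in the libraries labelled Trem1-/-, beside 11.5% of all genes called higher and 6.82% called lower. Nck1, an adaptor that links ROBO receptors to the actin machinery, had 246 ± 17.3, 141 ± 16.4 and 255 ± 32.7 normalized counts in young, aged wild-type and Trem1-/--labelled libraries (log2 difference between the aged groups 0.84 ± 0.13, limma adjusted p = 0.00294). Dock1, an exchange factor for Rac, had 612 ± 58.9, 257 ± 72.0 and 507 ± 35.6 (1.01 ± 0.17), and Rac1 itself had 1199.9 ± 74.9, 782 ± 67.1 and 1176 ± 77.5 (0.59 ± 0.10). Myo9b, the most abundant gene of the list, which restrains RhoA, rose by 0.36 ± 0.10 between the aged groups. The SLIT ligands stayed below the filter on low values, with Slit3 at 12.8 ± 8.54 normalized counts in aged wild type and 7.36 ± 8.97 in the libraries labelled Trem1-/-. Of 15 latrophilin relatives and ligands only 3 were tested; the most abundant, the teneurin Tenm4, had 69.1 ± 14.0, 105 ± 15.3 and 64.9 ± 31.9 in the same order (aged groups, limma adjusted p = 0.0843).

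Gnb3 and Cacna1h, a G protein subunit and a calcium channel, were almost absent from young libraries. Gnb3 (ENSMUSG00000023439.11, chromosome 6, 124834240 to 124840275, minus strand) had 3.49 to 7.84 normalized counts in young wild type. It had 56.3, 232 and 164 in replicates 3, 4 and 6 of aged wild type, and 93.0, 31.2 and 95.2 in replicates 1, 2 and 3 labelled Trem1-/-. The aged groups overlapped and each had 1 low library, replicate 3 in aged wild type and replicate 2 among those labelled Trem1-/-. Their means, 151 ± 88.7 and 73.1 ± 36.3, were 26.3 and 12.8 times the young mean of 5.73 ± 1.95 and differed by -0.97 ± 0.53 on the log2 scale (95% confidence interval -2.14 to 0.19, limma adjusted p = 0.221). That difference was -0.55 without aged wild-type replicate 4, -0.45 without replicate 2 labelled Trem1-/- and -1.56 without aged wild-type replicate 3, and passed in none of these (limma adjusted p 0.0629 to 0.596).

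Cacna1h (ENSMUSG00000024112.16, chromosome 17, 25374285 to 25433783, minus strand) had 1.74, 0, 6.005 and 0 normalized counts in young replicates A, B, C and E, from 7 reads in all. It had 24.3, 13.1 and 39.5 in aged wild type, and 44.96, 23.2 and 14.9 in the libraries labelled Trem1-/-. The aged ranges almost coincided, and the log2 difference of 0.10 ± 0.75 had the widest confidence interval of the 9 genes (-1.55 to 1.75, limma adjusted p = 0.94). The interval spans 0.341 to 3.36 times, so differences of either sign within it were not excluded. It uses a spread shared with the young libraries. Of the exonic bases of Cacna1h, 158 overlap Tpsg1, a mast cell tryptase gene on the opposite strand. Mast cell markers summed to 242 to 1433, 950 to 2295 and 420 to 1988 normalized counts in the 3 groups, and their part in these reads was not tested.

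The lists fixed beside these genes hold the other subunits of both families. Of 8 tested G protein beta and gamma subunits, 5 fell and 1 rose in aged wild type against young, beside 33.3% of all genes called in either direction, and 4 were higher and 1 lower in the libraries labelled Trem1-/- than in aged wild type, beside 18.4%. Gnb1, the main beta subunit, had 1224 ± 177, 879 ± 74.9 and 1217 ± 10.95 normalized counts in the 3 groups (aged groups 0.47 ± 0.12, limma adjusted p = 0.0226). Gng12 rose by 0.76 ± 0.18 between the aged groups, whereas Gng2 fell by 0.71 ± 0.20. Of 7 tested calcium channel subunits, Cacna1d, an L-type pore, was higher in the libraries labelled Trem1-/- (0.57 ± 0.16, limma adjusted p = 0.0333) and Cacna1e, an R-type pore, was lower (-1.61 ± 0.42, limma adjusted p = 0.0223). Cacna1e had 340 ± 117 normalized counts in young, 1601 ± 435 in aged wild type and 578 ± 365 in the libraries labelled Trem1-/-. In aged wild type against young 3 of the 7 rose and 1 fell, beside 33.3% of all genes called in either direction. Between the aged groups the split was 1 higher and 1 lower, beside 18.4% of all genes. It was 2 and 1 after TMM rescaling or 1 and 2 with edgeR and DESeq2.

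Cubn was the gene with the least spread among the libraries labelled Trem1-/-. It (ENSMUSG00000026726.10, chromosome 2, 13276338 to 13491813, minus strand) had 0.872, 1.85, 6.005 and 1.16 normalized counts in young replicates A, B, C and E, from 10 reads in all. It had 43.5, 69.8 and 48.5 in aged wild type and 30.7, 32.0 and 31.0 in the libraries labelled Trem1-/-, whose SD was 0.731. The latter all lay below aged wild type, with a mean ratio of 0.579, but the log2 difference of -0.74 ± 0.46 did not pass (95% confidence interval -1.74 to 0.26, limma adjusted p = 0.277). That interval uses a spread shared with the young libraries. The adjusted p was 0.0723 with DESeq2, 0.0966 with edgeR and 0.076 with limma on the aged libraries alone. Without aged wild-type replicate 4 the difference was -0.54 (limma adjusted p = 0.491). Amn, the membrane anchor that cubilin needs in epithelia, was close to absent, at 0.891 ± 1.15 and 1.15 ± 1.30 normalized counts in young and aged wild type and no read in the libraries labelled Trem1-/-. Lrp2, its endocytic partner megalin, had 2.38 ± 3.40, 10.8 ± 7.60 and 3.205 ± 5.55 in the 3 groups. Of 7 tested partners and related endocytic genes, 6 fell in aged wild type against young, beside 19.0% of all genes called lower there. Between the aged groups 5 were higher in the libraries labelled Trem1-/-, beside 11.5% of all genes called higher. Tcn2, the blood carrier of vitamin B12, had 2298 ± 130, 881 ± 285 and 2372 ± 297 normalized counts in the 3 groups (aged groups 1.47 ± 0.19, limma adjusted p = 0.00167). Lrpap1, a chaperone of LDL-receptor family proteins, and the endocytic receptor Lrp1 rose by 0.76 ± 0.12 and 0.96 ± 0.16 between the aged groups.

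Fgl2, Prss35 and Enpp5, which encode cell-surface or secreted proteins, had higher means in the libraries labelled Trem1-/- than in aged wild type. Fgl2 (ENSMUSG00000039899.5, chromosome 5, 21372642 to 21378374, plus strand) had 73.2 to 105 normalized counts in young wild type. It had 160.0, 314 and 476 in replicates 3, 4 and 6 of aged wild type, and 491, 502 and 418 in replicates 1, 2 and 3 labelled Trem1-/-. The spread in aged wild type was wide, 317 ± 158 against 470.4 ± 46.1, and the ranges overlapped. The log2 difference between the aged groups was 0.70 ± 0.30 (95% confidence interval 0.04 to 1.36, limma adjusted p = 0.126), and it rested on single libraries: it was 0.28 without aged wild-type replicate 3 (adjusted p = 0.392) and 1.06 without aged wild-type replicate 6 (adjusted p = 0.0284). Prss35 (ENSMUSG00000033491.13, chromosome 9, 86743649 to 86758443, plus strand) had 5.54 to 8.14 normalized counts in young wild type, 12.8, 36.0 and 36.8 in aged wild type and 52.1, 40.1 and 53.9 in the libraries labelled Trem1-/-. The last 3 lay above every aged wild-type library, with a mean ratio of 1.71, and the log2 difference of 0.88 ± 0.38 did not pass (95% confidence interval 0.05 to 1.70, limma adjusted p = 0.126). Without aged wild-type replicate 3, the lowest aged library, it was 0.40 (limma adjusted p = 0.397).

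The clotting list fixed beside Fgl2 also holds the Fc receptor gene Fcgr3. Of its 8 tested genes, 4 fell in aged wild type against young, beside 19.0% of all genes called lower there. Between the aged groups 3 were higher in the libraries labelled Trem1-/-, beside 11.5% of all genes called higher. F5, coagulation factor V, had 9866 ± 739, 3361 ± 1102 and 11334 ± 1418 normalized counts in the 3 groups, so that Fgl2 and F5 stood in a different order across them. F10, the protease that factor V assists, rose by 1.495 ± 0.25 between the aged groups (limma adjusted p = 0.00378), and Fcgr3, an activating Fc receptor, by 0.99 ± 0.27. Of 16 other PRSS-type protease genes, Tpsb2, a mast cell tryptase, was the only one tested (aged groups, limma adjusted p = 0.221).

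Enpp5 was the gene that passed between the aged groups and the one that was not high in aged wild type. It (ENSMUSG00000023960.13, chromosome 17, 44078813 to 44086567, plus strand) had 61.9, 63.4, 56.4 and 53.5 normalized counts in young replicates A, B, C and E. Aged wild-type replicates 3, 4 and 6 had 48.6, 61.1 and 58.4, and replicates 1, 2 and 3 labelled Trem1-/- had 172, 132 and 180.1. The aged wild-type and young ranges overlapped, with a log2 difference of -0.07 ± 0.15, and the libraries labelled Trem1-/- stood above all other 7. Their mean of 161 ± 25.6 was 2.88 times that of aged wild type, 56.0 ± 6.56. The log2 difference was 1.502 ± 0.16 (95% confidence interval 1.15 to 1.86, limma adjusted p = 0.00121), higher in 3 of 3 libraries. It was 1.41 to 1.64 when any 1 library was left out, with a limma adjusted p of at most 0.00865. Because aged wild type stood at the young level, this difference was close to that of the Trem1-/--labelled libraries from young (1.43 ± 0.15). The choice of the genes used the latter, so these p-values are not free of the choice. The summed level of large macrophage markers overlapped between the libraries labelled Trem1-/- and young wild type, where Enpp5 had 58.8 ± 4.65. The part of macrophage content in the Enpp5 difference was not tested.

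Enpp5 lies on the same chromosome as Trem1, with 4.15 Mb between them. Within 5 Mb of Trem1, 67 genes were tested, Enpp5 included, of which 4 were called higher and 9 lower (19.4%, against 18.4% of all genes). Enpp5 had the highest log2 difference of the 67. The labels do not give the strain in which the deletion was made or any backcross, and the part of linked sequence in the Enpp5 difference was not tested. Of 6 tested genes of the list of ENPP and purinergic enzymes, 2 were higher and 1 lower in the libraries labelled Trem1-/- than in aged wild type, beside 18.4% of all genes. Nt5e (CD73, which makes adenosine) rose by 1.04 ± 0.14 and Entpd1 (CD39) by 0.63 ± 0.15 between the aged groups, while Ada (adenosine deaminase) fell by 1.28 ± 0.34. Ada had 18.4 ± 7.08, 53.2 ± 8.29 and 21.5 ± 4.92 normalized counts in young, aged wild-type and Trem1-/--labelled libraries.

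**Figure D2:**
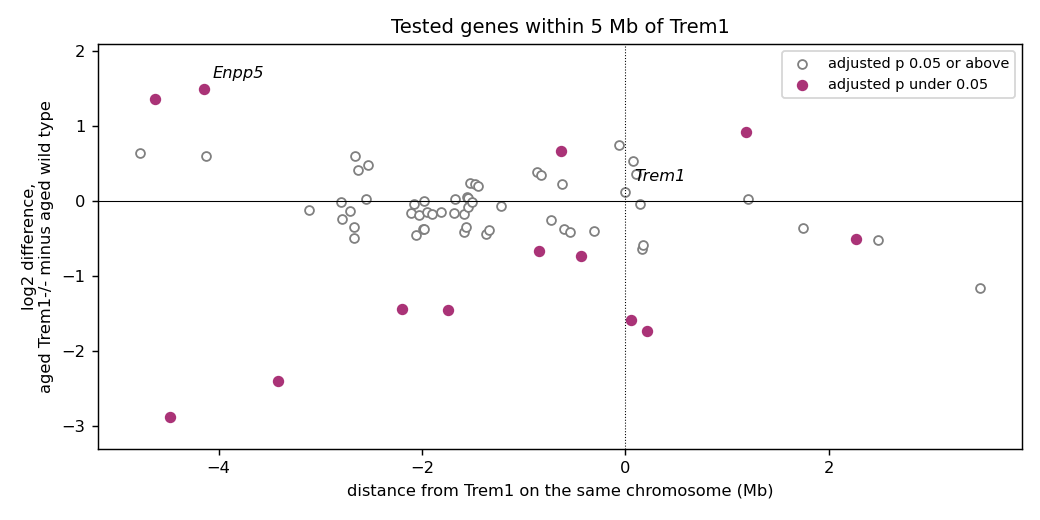
Log2 difference between aged libraries labelled Trem1-/- and aged wild type for each tested gene within 5 Mb of Trem1 (x axis, distance in Mb, negative before its start; filled points, limma adjusted p under 0.05). Enpp5, at 1.502, is the highest point, 4.15 Mb from Trem1, and called genes of both signs lie in the window.

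Prdm1 had similar means in both aged groups. It (ENSMUSG00000038151.13, chromosome 10, 44437177 to 44528501, minus strand) had 14.8, 9.24, 15.6 and 8.14 normalized counts in young replicates A, B, C and E. Aged wild-type replicates 3, 4 and 6 had 64.0, 78.6 and 199, and replicates 1, 2 and 3 labelled Trem1-/- had 74.6, 107 and 74.6. Aged wild-type replicate 6 was far above the rest, and the Trem1-/--labelled libraries lay inside the aged wild-type range. The log2 difference was -0.25 ± 0.39 (limma adjusted p = 0.696), with a 95% confidence interval of -1.10 to 0.61, that is 0.467 to 1.52 times. Blimp-1 is abundant in plasma cells, whose part in the Prdm1 reads was not tested. The summed level of 11 plasma cell markers was 546 to 647 in young, 881 to 1192 in aged wild type and, where labelled Trem1-/-, 640.1 to 822. Among the last, replicate 2 had the highest Prdm1 and the lowest plasma cell sum. Jchain, the joining chain of secreted antibody and a defining plasma cell gene, had 0.898 ± 1.04, 9.50 ± 10.5 and 6.98 ± 6.34 normalized counts in the 3 groups. Between the aged groups 1 of 5 tested plasma cell markers, Mzb1, was lower (-1.04 ± 0.32, limma adjusted p = 0.0441), beside 6.82% of all genes called lower. That call was lost after TMM rescaling.

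Of 26 tested genes of the Prdm1 network, 8 rose and 4 fell in aged wild type against young, and 1 was higher and 5 lower in the libraries labelled Trem1-/- than in aged wild type, beside 33.3% and 18.4% of all genes called in either direction. With DESeq2 12 rose and 3 fell in the former and 2 were higher and 7 lower in the latter. Bach1, a repressor of haem oxygenase, had 811 ± 39.8, 339 ± 34.3 and 969 ± 299 normalized counts in the 3 groups (aged groups 1.47 ± 0.18, limma adjusted p = 0.00166). Bach2, a B cell repressor that keeps Prdm1 down, had 111 ± 36.9, 303 ± 23.2 and 149 ± 15.8 (-1.02 ± 0.23), and Pax5, the B cell identity factor that Blimp-1 represses, had 326 ± 87.4, 1275 ± 501 and 521 ± 196 (-1.28 ± 0.34). The other 3 lower genes were Spib and Irf8, transcription factors that B cells also express, and Prdm9, a meiotic relative of Prdm1. The most abundant of the list, Irf2, did not pass between the aged groups (limma adjusted p = 0.0602).

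Across the 81 tested genes of all these pathway lists, 22 were higher and 8 lower in the libraries labelled Trem1-/- than in aged wild type, and 15 rose and 30 fell in aged wild type against young (37.0% and 55.6% called, beside 18.4% and 33.3% of all genes). Against young wild type, where 0.921% of all genes were called (0.591% higher, 0.33% lower), limma called 0 of the 81 in the libraries labelled Trem1-/- (16 had an unadjusted p under 0.05), edgeR called 0 and DESeq2 called 7. The lists were built around the 9 genes, so these counts describe the lists only. Large macrophage markers moved in the same direction as most of the pathway genes that were called. Of these markers, 14 of 15 fell in aged wild type against young and 13 were higher in the libraries labelled Trem1-/- than in aged wild type. F5 belongs to both kinds of list, and the part of macrophage content in the pathway counts was not tested.

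Between the aged groups 1 of the 9 genes passed, beside 18.4% of all genes called in either direction. The choice of genes above young in both aged groups bears on this count and on that of non-overlap below. Neither is therefore read against its share. The libraries labelled Trem1-/- had the higher mean for 4 genes (Enpp5, Prss35, Fgl2 and Cacna1h) and the lower for 5, and the median log2 difference of the 9 was -0.25, against 0.02 over all genes tested. The sign turned when 1 library was left out for Prdm1 (0.24 without aged wild-type replicate 6) and for Cacna1h (-0.30 without aged wild-type replicate 4 and -0.31 without replicate 1 labelled Trem1-/-), so this split and the median, which is Prdm1's own value, rest on single libraries. The aged groups did not overlap for 4 genes (Cubn, Enpp5, Prss35 and Adgrl2), beside 34.9% of all genes tested. For the 8 genes that missed the threshold the confidence intervals reached from 0.126 to 3.36 times, so larger differences than those found were not excluded. In aged wild type, replicate 3 was the lowest library for 7 of the 9 genes. Among the libraries labelled Trem1-/-, replicate 2 was the lowest for 5 genes and the highest for 3 (Cubn, Fgl2 and Prdm1).

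**Figure D3:**
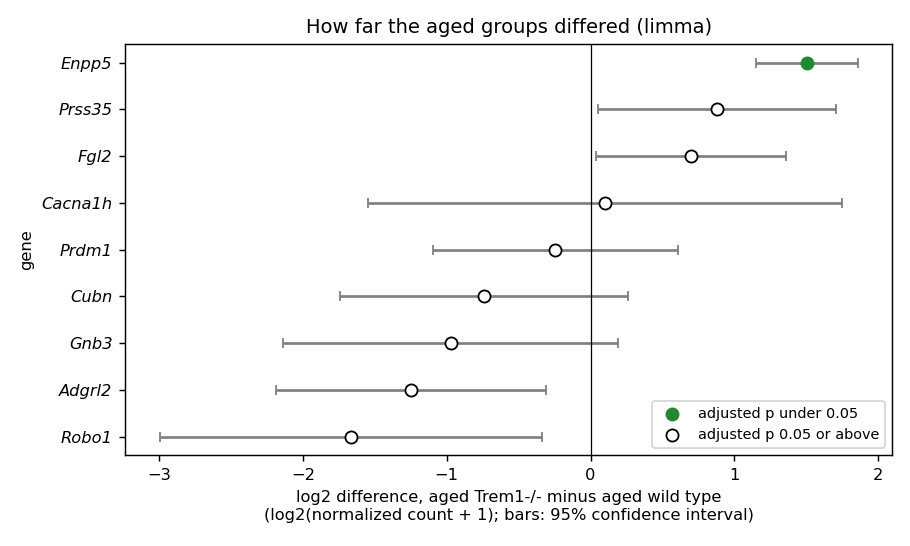
Log2 difference between aged libraries labelled Trem1-/- (n = 3) and aged wild type (n = 3) for the 9 genes, with 95% confidence intervals from limma. Enpp5, at 1.502, is the filled point with an adjusted p under 0.05, and the others run from -1.66 (Robo1) to 0.88 (Prss35).

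Markers of other cell types differed between the same groups. Of 15 B cell markers 14 rose in aged wild type against young, beside 14.3% of all genes called higher there. Between the aged groups 7 were lower in the libraries labelled Trem1-/-, beside 6.82% of all genes called lower. T and NK cell markers summed to 83.7 to 152 normalized counts in young, 445 to 763 in aged wild type and, where labelled Trem1-/-, 94.0 to 176, and mesothelial markers to 6.77 to 180.1, 350.4 to 674 and 21.5 to 249.96. Fibroblast markers summed to 339 and 455 in aged wild-type replicates 3 and 6, 419 in young replicate C and 354 in replicate 2 labelled Trem1-/-, and to 3.44 to 29.5 elsewhere. Erythroid markers summed to 23863 in aged wild-type replicate 4, against 9.30 to 760.2 in all other libraries. Endothelial markers summed to 69.7 to 154, 394 to 511 and 124 to 188 in the 3 groups. No gene of the B, T and NK, mesothelial, fibroblast, endothelial and erythroid lists was without a read in the aged libraries. In the eosinophil list Il5ra had 54.7 ± 12.1, 375 ± 157 and 144 ± 90.5 normalized counts, while Prg2, a defining granule gene, had no read in any library.

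Robo1 was the gene whose libraries stood in the same order as the B cell sum within both aged groups. Aged wild-type replicates 3, 6 and 4 had B cell sums of 25221, 23896 and 16199 and Robo1 levels of 255, 226 and 84.0, and replicates 3, 1 and 2 labelled Trem1-/- had sums of 14949, 11147 and 7409 with Robo1 levels of 119, 54.2 and 22.4. Among the libraries labelled Trem1-/- 5 genes shared that order, Gnb3, Enpp5, Prss35, Adgrl2 and Robo1, and in aged wild type only Robo1 did. The share of all genes with these orders was not counted. With 3 libraries in each aged group, nothing is read from the orders, that of Robo1 included. Expressed per 1000 normalized counts of the B cell sum, a ratio chosen after the values were seen, Robo1 was 1.08 to 2.22 in young, 5.19 to 10.1 in aged wild type and, where labelled Trem1-/-, 3.03 to 7.98. On that ratio all aged libraries lay above all young ones for Gnb3, Cubn, Adgrl2 and Robo1, and did not for Cacna1h, Fgl2, Enpp5, Prss35 and Prdm1. The genes were chosen on these levels, and the ratio falls wherever the B cell sum rises more than the gene. Nothing is therefore read from this sorting. For Fgl2 the ratio was 12.5 to 22.6 in young, 6.34 to 19.9 in aged wild type and, where labelled Trem1-/-, 27.9 to 67.8. Which cells carried the reads of these genes was not tested.

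**Figure D4:**
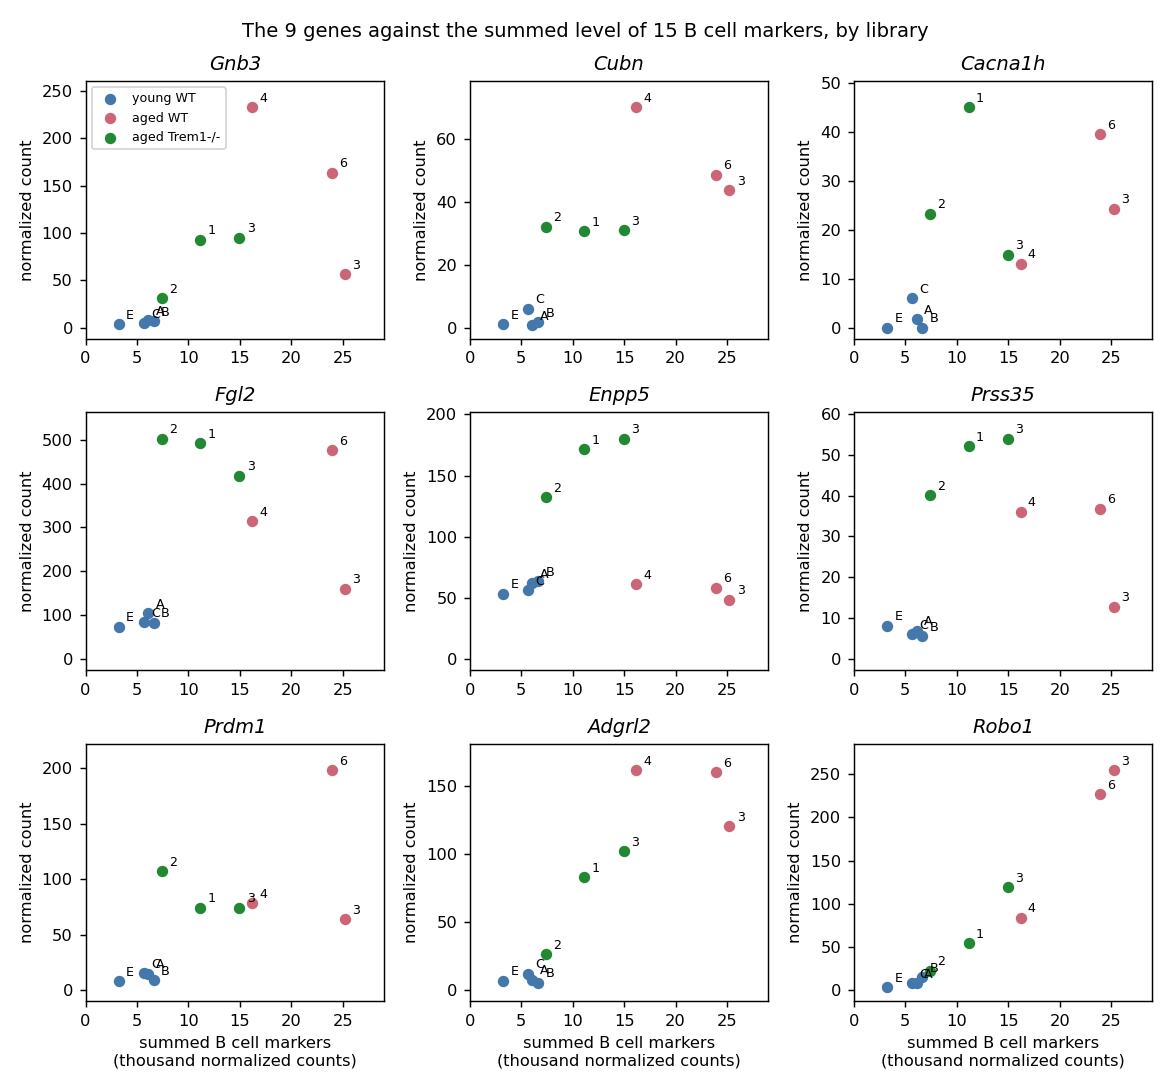
Normalized read count of each of the 9 genes (y axis) against the summed normalized counts of 15 B cell markers (x axis, in units of 1000 normalized counts), 1 point per library labelled by replicate. Robo1 climbs with the B cell sum from 3.49 to 255, whereas Enpp5 in aged wild type stays at 48.6 to 61.1 while its B cell sums are the highest.

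The genes whose log2 levels were most like those of the 9 over the 10 libraries fell into different kinds, given as Pearson's r with no test, since libraries of a group share their level and all libraries share the scaling. Robo1 was most like Ahnak2 (r = 0.994) and Cd79a (r = 0.991), a signalling chain of the B cell receptor, which had 263 ± 86.9, 1288 ± 300 and 657 ± 304 normalized counts in the 3 groups. Adgrl2 was most like C130026I21Rik (0.975) and AC168977.1 (0.972). Gnb3 was most like Etl4 (0.979) and Itih5 (0.973), Cubn like S1pr3 (0.981), and Prdm1 like the D-type cyclin Ccnd2 (0.96) and the syndecan Sdc4 (0.944). Fgl2 and Prss35 were both most like Zmynd8 (0.968 and 0.971), followed by Jmjd1c (0.957) and the chitinase Chit1 (0.958). Cacna1h had an r of 0.933 with Ralgapb. Enpp5 was most like B2m (0.957), the light chain of MHC class I, and H6pd (0.949), an enzyme of the pentose phosphate route in the endoplasmic reticulum, both of which were higher in the libraries labelled Trem1-/- than in aged wild type (log2 differences 0.57 ± 0.10 and 0.85 ± 0.15). Among the 9 genes, Fgl2 and Prss35 had the most similar pattern (r = 0.973), then Gnb3 and Adgrl2 (0.961), and the least similar was that of Enpp5 and Robo1 (0.179).

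Levels of different genes were compared per kilobase of exon. In aged wild type Fgl2 had 83.6 normalized counts per kilobase, Gnb3 57.3 and Prdm1 20.4, followed by Enpp5 (11.5), Robo1 (11.4), Adgrl2 (10.4), Prss35 (8.29), Cubn (3.61) and Cacna1h (2.63). In the libraries labelled Trem1-/- Fgl2 led again with 124, and Enpp5 was second with 33.2, ahead of Gnb3 with 27.8.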

How the data were processed

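RNA sequencing of 10 libraries in 3 groups was analysed from 1 deposited table of 54532 genes. Per the submitters' processing notes, fastp, STAR, featureCounts 1.5.0-p3, DESeq2 1.20.0 and GRCm38 were used; for parameters, strand setting and annotation, they are silent. Per the labels' protocols, libraries came from a stranded Takara cDNA kit and a NEBNext kit. The deposited values were normalized counts per library, in units of signal, and 100% of them equalled whole reads times a library constant (tolerance 1e-06), which gave back the reads. The deposited comparison of aged with young wild type held a log2 fold change, its standard error and Wald statistic (both of unit score) and the authors' p-value, raw and adjusted.

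Groups were compared by limma-trend, version 3.58.1 in R 4.3.3, applied to log2(normalized count + 1) of the 11506 genes whose mean reached 10, all 10 libraries in 1 model of 3 groups, with Benjamini-Hochberg adjustment at 0.05; these log2 differences understate changes of low genes. All 9 genes passed that filter, those near absent from young libraries only through the aged groups. edgeR 4.0.16 and DESeq2 1.42.0 on recovered reads, TMM rescaling, other pseudocounts (0.5 and 5), other filters (1, 50 and none), the aged libraries alone and leaving out each library were alternatives. The fit was tested on simulated data. GENCODE M21 gave coordinates and exon lengths, which are unions over annotated transcripts. Exons of Cubn, Cacna1h and Adgrl2 overlap 1 gene each on the other strand (368, 158 and 202 bases), so their counts are uncertain there. Intervals and floors cover counting error or replicate spread only. Named genes were the 9 members, from each pathway list the called genes with the smallest p between the aged groups (at most 3) and the most abundant one, and the 2 genes most correlated with each member, of which some are not reported here. Members, lists and rules were chosen with earlier results of these data known. Spib, Irf8, Prdm9, Amn, Lrp2, Slit3, Il5ra, Prg2, Jchain, Mzb1 and the defining cell type genes were named after their values were seen.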

Additional observations from a re-analysis of the deposited data

How the results depend on the processing

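Enpp5 kept its direction and its call between the aged groups in all 19 alternatives, none of which is free of the choice of the gene. The differences of Prdm1 and Cacna1h, which did not pass, turned sign when single libraries were left out, as given above. The number of the 9 genes called there was 1, and 2 with DESeq2, with a pseudocount of 5 or with no filter; leaving out each library in turn gave 1 to 3. The count with all aged libraries above all young ones was run only with TMM rescaling and with each library left out, and stayed at 8. Leaving out a library cannot lower this count, and the genes were picked for the pattern, so nothing is read from it. No paired analysis was possible because the aged groups share only replicate number 3 and the young replicates carry letters. Of all genes, 2112 were called between the aged groups (1327 higher, 785 lower) and 1171 (726 and 445) in the aged libraries alone, where fewer samples set the spread. Leaving out each library gave 1080 to 2802 (762 to 1782 higher, 318 to 1020 lower); the total fell to 1080, 1184, 1304 and 1111 without aged wild-type replicate 3 or 6 or replicate 1 or 2 labelled Trem1-/-. Against young wild type, 106 genes were called in the libraries labelled Trem1-/-, 448 with DESeq2, 263 with no filter and 36 with a minimum mean of 50. Leaving out each library gave 0 to 263: limma called 0 without replicate 3 labelled Trem1-/- (1268 had an unadjusted p under 0.05), edgeR 3 and DESeq2 227, an addition made after seeing the data. The cause was not tested. In the lists, DESeq2 called 13 of 15 B cell markers lower between the aged groups in place of 7. It called 0 of 6 erythroid markers lower in place of 5. Of 8 genes of the clotting list it called 5 higher in place of 3 (edgeR 2). With edgeR 2 of 8 G protein subunits were called higher in place of 4. Cacna1h and Cubn rest on 7 and 10 young reads, and a pseudocount of 5 lowered their log2 difference of aged from young wild type from 3.54 to 2.13 and from 4.17 to 3.003.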
